A study of Rattus norvegicus with 8 samples.

Results

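The genes described here are 10 targets of the transcription factor NF-kB, chosen by name: the chemokines Ccl2, Cxcl1 and Cxcl10, the cytokine Tnf, the signalling and feedback genes Traf1, Nfkbia, Nfkb2 and Tnfaip3, and the adhesion genes Icam1 and Vcam1. These genes, and the gene and marker lists used below, were chosen with earlier results of these data known. Their shares of called genes are therefore descriptive and not independent of the data. Together they were read by 11 of the 45598 non-control probes of a rat expression microarray, and all 10 were among the 22593 genes tested. The arrays held RNA from hippocampal neurons of newborn Wistar rats, grown in NeurobasalA medium with B27 and Glutamax. All cultures had received a lentivirus on day 3 in vitro (multiplicity of infection 6) and were harvested on day 10. In 4 samples the virus carried a rat SIRT6 shRNA and in 4 a scrambled control shRNA, so that both groups share the virus and differ in the hairpin. The design addressed the molecular function of SIRT6 in shaping neurons. A single Sirt6 hairpin was compared with a single scrambled one, and separate animals or cultures within a group are not named in the labels, so the p-values below reflect only how much these samples vary, which can be technical variation.

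NF-kB is a family of dimeric transcription factors held in the cytoplasm by IkB proteins. Signals from receptors for TNF, interleukin 1 and bacterial products activate a kinase complex that marks IkB for destruction, and the freed dimers enter the nucleus and bind kappaB sites in the promoters of chemokine, cytokine and adhesion genes. They also switch on their own inhibitors, which ends the response. In brain cultures the same targets can be expressed by microglia, astrocytes and vascular cells as well as by neurons. SIRT6 is an NAD-dependent deacetylase of chromatin that has been described as a partner of the RELA subunit at NF-kB target promoters.

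Promoters of 6 of the genes are shown first, because they hold matches to the site that NF-kB binds. RefSeq promoter sequences of the GRCr8 build, from 250 bases before to 50 bases after the gene start, matched 9 of the 10 genes; Ccl2 was the one without an entry. The kappaB consensus was searched on both strands and was found in 6 of these 9 promoters, against 7.51% of the 33469 promoters in the table. Since the genes were chosen as known NF-kB targets, a share above that of all promoters follows from the choice and is no test. The interferon element GAAANNGAAA, searched on both strands, was found in the promoters of Cxcl10 and Vcam1, against 3.92% of all promoters. The stretches that hold the matches are given 5′ to 3′ in the direction of the gene, with the matched bases of either motif in capitals.
Cxcl10, chr14:15988816-15988973, plus strand: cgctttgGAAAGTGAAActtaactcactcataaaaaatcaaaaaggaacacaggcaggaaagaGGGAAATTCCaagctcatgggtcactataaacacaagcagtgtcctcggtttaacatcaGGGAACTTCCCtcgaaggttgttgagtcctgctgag
Cxcl1, chr14:17479370-17479430, minus strand: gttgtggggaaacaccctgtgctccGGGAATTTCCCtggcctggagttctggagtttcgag
Vcam1, chr2:206742795-206742901, minus strand: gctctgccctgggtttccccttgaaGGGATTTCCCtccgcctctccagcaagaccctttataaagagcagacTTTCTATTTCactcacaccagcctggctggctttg
Nfkbia, chr6:78597073-78597128, minus strand: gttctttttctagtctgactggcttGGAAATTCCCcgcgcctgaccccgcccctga
Nfkb2, chr1:255108329-255108373, plus strand: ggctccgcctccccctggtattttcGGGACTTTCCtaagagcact
Tnfaip3, chr1:15544000-15544174, minus strand: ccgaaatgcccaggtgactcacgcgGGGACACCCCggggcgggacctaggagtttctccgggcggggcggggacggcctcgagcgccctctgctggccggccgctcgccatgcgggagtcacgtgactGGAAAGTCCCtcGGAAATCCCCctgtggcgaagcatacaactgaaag

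The Cxcl10 stretch held an interferon element at bases -243 to -234 from the gene start, a kappaB match at -187 to -178 and a longer kappaB match at -128 to -118. Cxcl1 held a kappaB match at -84 to -74 and Vcam1 at -93 to -84, and Vcam1 also held the interferon element, on the opposite strand, at -46 to -37. Tnfaip3 had 3 separate kappaB matches, the most of any of these genes. Nfkbia and Nfkb2 each had a single match, at -31 to -22 and at -20 to -11. No letters of either motif were found in this window for Tnf, Traf1 or Icam1. These motifs were chosen with earlier results of these data known, and a match describes the letters and does not show that a factor binds there.

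**Figure D1:**
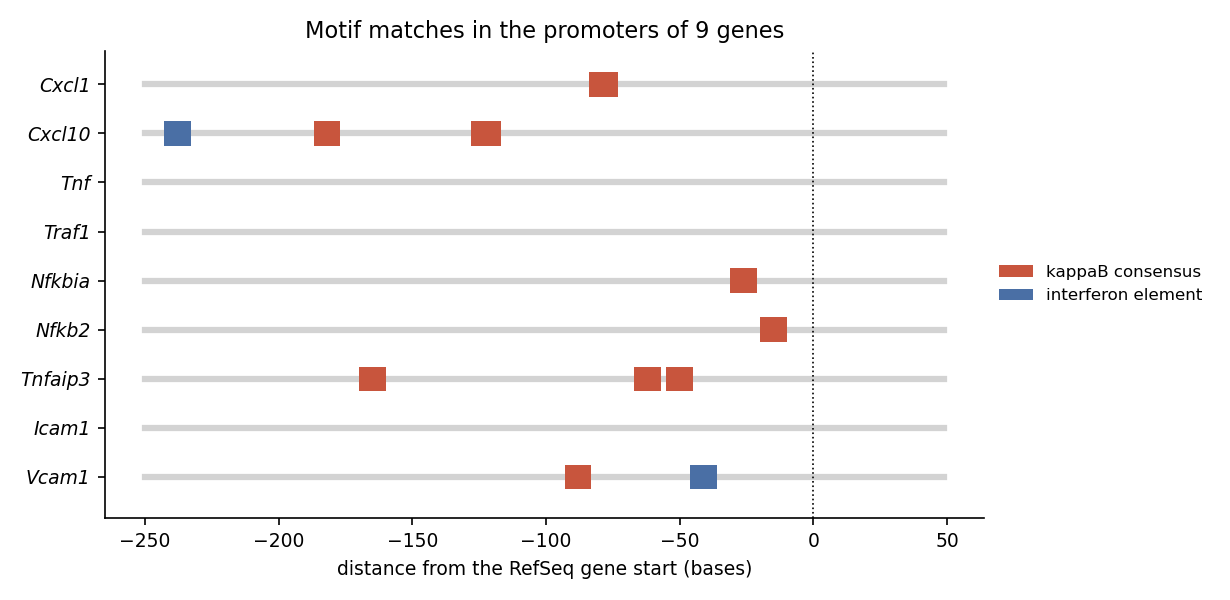
Position of motif matches along the promoters of 9 genes, as distance in bases from the RefSeq gene start (dotted line); grey bars are the windows searched, red boxes kappaB matches and blue boxes interferon elements. Matches of the kappaB consensus stood in 6 of the 9 windows, and Tnfaip3 had 3 of them.

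The arrays were alike in quality. Between 60.4% and 65.3% of probes were well above background, no probe was saturated, and arrays correlated at 0.995 to 0.998 within groups and 0.991 to 0.993 between them, across probes. All 8 were on 1 slide from 1 scan; the scrambled arrays lay in slide row 1 and the Sirt6 arrays in row 2, so row and hairpin cannot be told apart. The Sirt6 transcript itself fell by 1.53 ± 0.040 (SE) on the log2 scale, to 34.6% of the scrambled level (limma, adjusted p = 5.55e-06, n = 4 per group), and had the smallest p of all genes tested. All 12 neuron markers on a fixed list were tested, and their mean log2 level was 2.37 to 2.42 with the scrambled shRNA and 2.34 to 2.47 with the Sirt6 shRNA, so the labelled cell type was present in every sample. Levels below are log2 processed signal relative to each array's 75th percentile, which is set to 0, and a difference is the Sirt6 shRNA mean minus the scrambled mean on that scale. A gene is called where the adjusted p of limma's test, over all genes tested, is under 0.05. Of the 12 neuron markers, 3 were called lower and 4 higher, 58.3% in all beside 30.4% of all genes tested. Their differences ran from -0.405 to 0.399, with a median of 0.067. With spike-in scaling 1 was lower and 2 were higher. In total RNA of a mixed culture, fewer cells of a type and less RNA per cell cannot be told apart.

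With the Sirt6 shRNA, 8 of the 10 genes were lower and none was higher by limma's adjusted p; by its unadjusted p, 9 were lower and 0 higher. Among all genes tested, 14.8% were called lower and 15.6% higher, 30.4% in all. Because the members were chosen with earlier results of these data known, this contrast is no test of them as a set. The 8 were Ccl2, Cxcl1, Cxcl10, Tnf, Traf1, Nfkb2, Icam1 and Vcam1; Nfkbia and Tnfaip3 were not called. The median difference of the 10 was -0.65 on the log2 scale, beside 0.02 over all genes. In 6 genes, Ccl2, Cxcl1, Traf1, Nfkb2, Icam1 and Vcam1, every Sirt6 array was below every scrambled array, which was also so for 16.1% of all genes tested (33.4% had groups without overlap in either direction). Ccl2 alone passed a 2-fold difference. Leaving out single arrays removed the calls of Cxcl10, Tnf or Nfkb2, and 5 genes (Ccl2, Cxcl1, Traf1, Icam1 and Vcam1) kept theirs in every such omission. The count fell to 5 without scrambled replicate 2, without scrambled replicate 4 or without Sirt6 replicate 1.

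**Figure D2:**
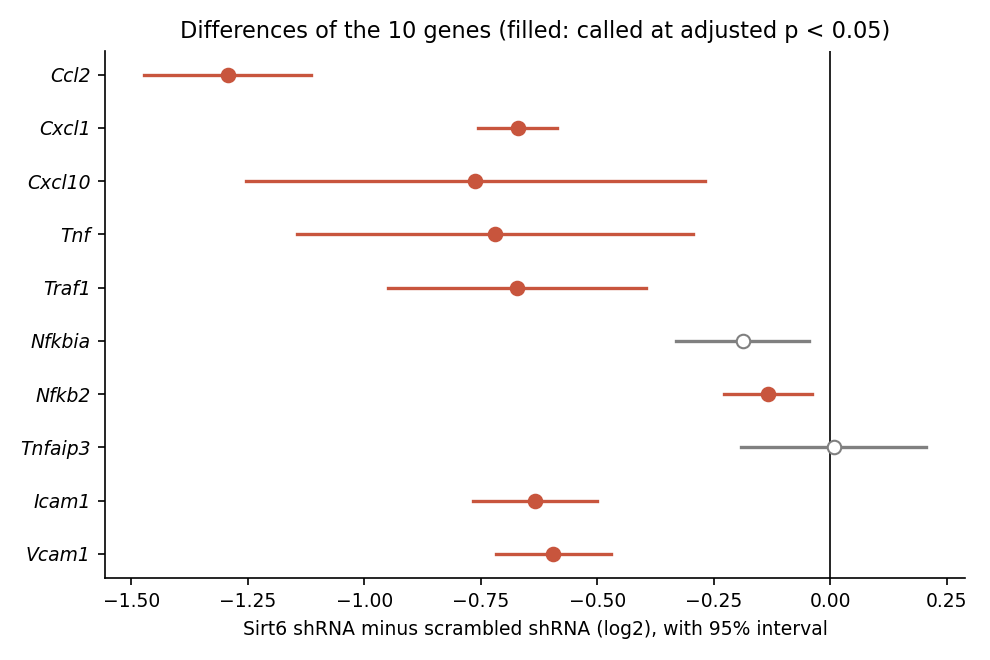
Difference between the Sirt6 shRNA and scrambled shRNA groups for the 10 genes on the log2 scale (x axis), with the 95% interval of limma's fit as bars (n = 4 per group); filled points were called. Ccl2 stood farthest from 0 at -1.29, Nfkb2 was the smallest called difference at -0.13, and the intervals of Cxcl10 and Tnf were the widest.

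Ccl2 encodes the chemokine that draws monocytes through the receptor CCR2, and it showed the largest difference of the 10. Its log2 levels were 6.64, 6.66, 6.54 and 6.53 in scrambled replicates 1 to 4 and 5.24, 5.51, 5.16 and 5.28 in Sirt6 replicates 1 to 4. The lowest scrambled array stood 1.02 log2 units above the highest Sirt6 array, and Sirt6 replicate 2 was the highest of its group. The processed signal fell from 31027 ± 1074 to 13060 ± 1244 (SD, n = 4), well inside the measurable range. The difference was -1.29 ± 0.078 (SE), with a 95% interval of -1.47 to -1.11 and adjusted p = 4.22e-05 by limma, so that 40.8% of the scrambled level was left.

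Its neighbours on the chromosome encode chemokines of the same kind, and they are given by their position beside Ccl2 in the RefSeq order. Ccl7, the next gene, was 2.78-fold lower, with a difference of -1.48 ± 0.063 (SE) and adjusted p = 1.97e-05 by limma. Ccl12, 3 genes away, was 3.06-fold lower, at -1.61 ± 0.17 (adjusted p = 0.000435), and at -1.05 after normexp background correction with an offset of 50. Neither had overlapping groups. Ccl11 lies between them and was not tested, being well above background on 1 array.

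Cxcl1 encodes a chemokine for neutrophils that acts through CXCR2. Its levels were 3.95, 3.91, 4.01 and 3.9 in the scrambled arrays and 3.27, 3.30, 3.25 and 3.27 in the Sirt6 arrays. Both groups were tight, with SDs of 0.047 and 0.022, and stood 0.60 log2 units apart at their nearest arrays. The difference of -0.67 ± 0.037 (SE; interval -0.76 to -0.59) corresponds to a 1.59-fold lower level and an adjusted p of 3.06e-05 by limma. Of the genes beside it, Cxcl2 was called lower at -0.34 (adjusted p = 0.0142) and Cxcl3 at -0.71 (adjusted p = 0.00053), both without overlap; the call of Cxcl2 was lost when arrays were scaled on spike-in probes.

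Cxcl10 encodes the interferon-inducible ligand of CXCR3 and had the largest SE of the 10. Its levels were 3.05, 3.48, 2.58 and 3.21 in the scrambled arrays and 1.92, 2.25, 2.50 and 2.60 in the Sirt6 arrays. Scrambled replicate 3 lay below Sirt6 replicate 4, so the groups overlapped. The difference was -0.76 ± 0.21 (SE; interval -1.26 to -0.27; 1.70-fold; limma, adjusted p = 0.0297). Leaving out 5 of the 8 arrays in turn (scrambled replicates 1, 2 and 4, Sirt6 replicates 1 and 2) ended the call, and adjusted p ranged from 0.0112 to 0.0716 over the omissions. The call was also lost with spike-in scaling (adjusted p = 0.0580). Both neighbours encode CXCR3 ligands too: Cxcl11 was at -1.05 ± 0.19 (adjusted p = 0.00499) and Cxcl9 at -1.24 ± 0.14 (adjusted p = 0.000560), each with no overlap between groups. After normexp background correction they were at -0.37 and -0.63, still called.

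Tnf encodes tumour necrosis factor, both a target and an activator of NF-kB. Its levels were -0.20, 0.12, -0.28 and -0.07 in the scrambled arrays and -0.93, -0.27, -1.12 and -0.99 in the Sirt6 arrays. Sirt6 replicate 2 stood at the scrambled level and the other 3 Sirt6 arrays lay below all scrambled arrays. The difference over all arrays was -0.72 ± 0.18 (SE; interval -1.15 to -0.30; 1.65-fold; limma, adjusted p = 0.0210). Without Sirt6 replicate 2 it was -0.90 with an adjusted p of 0.00124, and the call ended when scrambled replicate 2 or 4 or Sirt6 replicate 1, 3 or 4 was left out. A second Tnf probe, at background on all 8 arrays (that is, not called well above it by the scanner software), was not used. Of the genes on either side, Lta was not called at -0.09 (adjusted p = 0.109), and Ltb was called higher at 0.31 (adjusted p = 0.00750; 0.20 after normexp background correction).

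Tnf and microglial genes moved together from array to array. A fixed microglia and macrophage list had 15 tested markers. Their mean log2 level was 0.90, 1.24, 0.83 and 1.12 in scrambled replicates 1 to 4. In Sirt6 replicates 1 to 4 it was 0.42, 1.15, 0.29 and 0.48, again with Sirt6 replicate 2 at the scrambled level. In both groups replicate 2 was the highest and replicate 3 the lowest, for this list and for Tnf. Each replicate number also marks a slide column. No marker was at background on every array. Of the 15 markers, 4 were called lower and none higher (8 and 0 by unadjusted p), 26.7% beside 30.4% of all genes tested. Without Sirt6 replicate 2 the count was 13. Without Sirt6 replicate 3 it was 1, and 2 without scrambled replicate 2 or 4 or Sirt6 replicate 1 or 4. With the replicate number as a block, 9 markers were lower, and Tnf had an SE of 0.097 (limma, adjusted p = 0.0094). After subtracting the group means, Tnf correlated with this list at r = 0.989 over the 8 arrays, and the genes of most similar pattern were C1qc (r = 0.997), Ctss (0.995) and C1qa (0.993), of which the C1q genes are on the list. Ccl2 correlated with the list at 0.871, Icam1 at 0.728, Nfkb2 at 0.717 and Nfkbia at 0.700, while Cxcl1 (0.015), Vcam1 (0.018) and Traf1 (-0.081) did not follow it. For Ccl2, Icam1, Nfkb2 and Nfkbia, some other marker lists gave values near these or higher. For those genes the pattern is therefore not particular to microglia. Nfkbia was at 0.846 with the astrocyte list, where Icam1 was at 0.082. With the endothelial list Icam1 was at 0.818, Ccl2 at 0.741, Nfkb2 at 0.715 and Vcam1 at 0.669. With the fibroblast and meningeal list Ccl2 was at 0.796 and Traf1 at 0.652. Tnf was lower with both, at 0.493 and 0.488, and was at 0.493 with the astrocyte list. With the mural and smooth muscle list Tnf was at -0.137, Ccl2 at -0.087, Nfkbia at -0.387, Nfkb2 at -0.383 and Icam1 at 0.245. These correlations describe 8 arrays of 1 slide and carry no test, and the part of microglial RNA in the members' differences was not tested.

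Traf1 encodes an adaptor of TNF receptors that is itself induced by NF-kB, and it was close to background here. Its levels were -4.40, -4.59, -4.46 and -4.92 in the scrambled arrays and -5.45, -5.17, -5.15 and -5.29 in the Sirt6 arrays, with processed signals of 13.5 ± 2.04 and 8.65 ± 0.90 (SD, n = 4). The groups did not overlap, yet 2 of the 4 Sirt6 arrays were not well above background. The difference was -0.67 ± 0.12 (SE; interval -0.95 to -0.40; limma, adjusted p = 0.00452). Its size depended on how dim signals were treated: it was -0.15 after normexp background correction and -0.27 with 16 added to each scaled signal, called in both. The normexp correction used throughout adds an offset of 50, which is larger than these signals. Such an offset by itself shrinks the log2 difference of a dim gene.

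**Figure D3:**
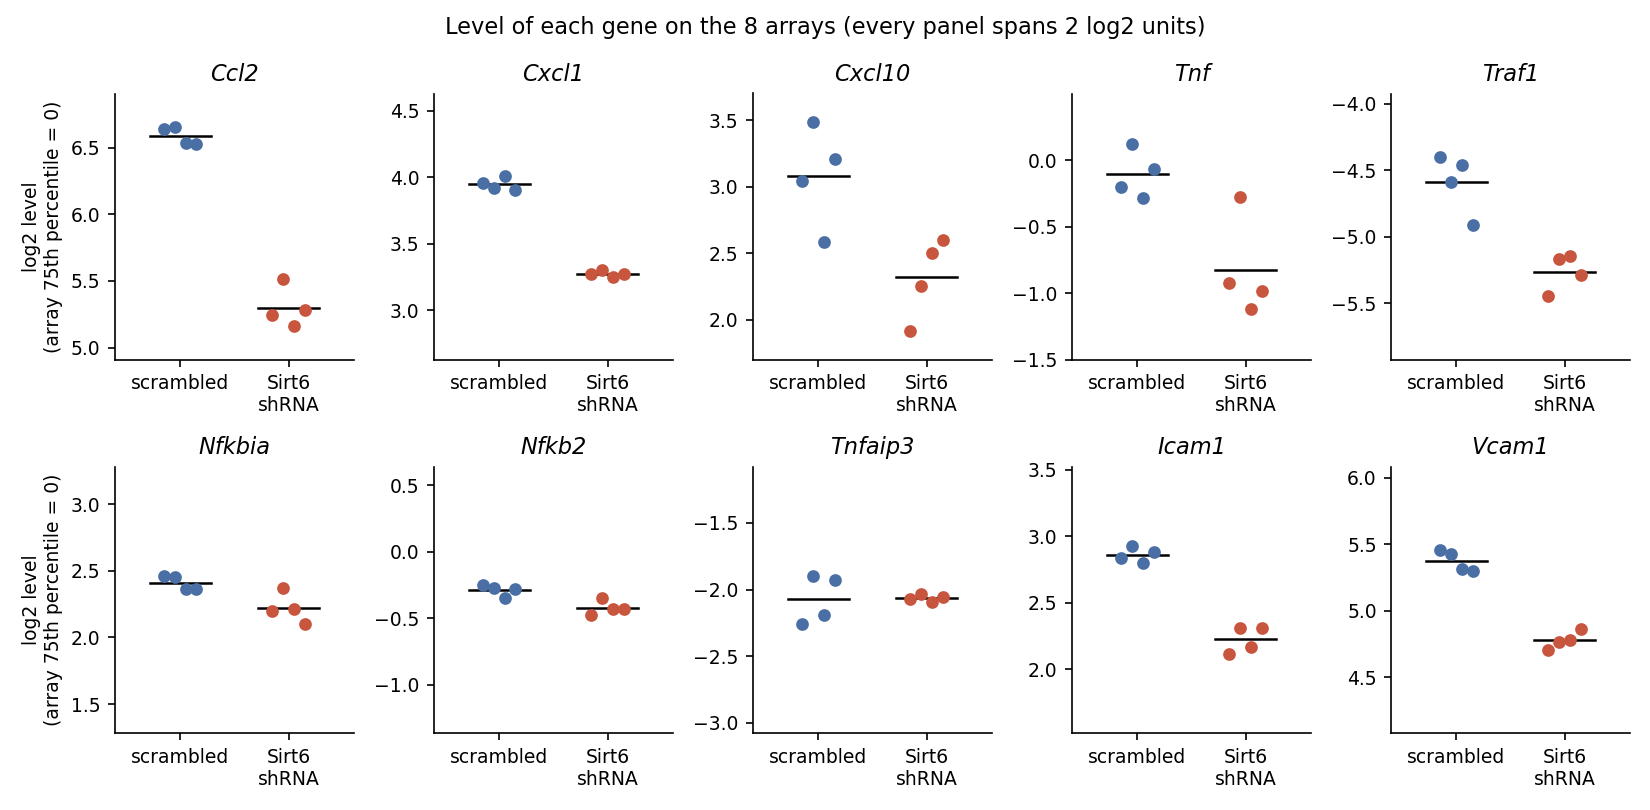
Level of each of the 10 genes on every array (y axis, log2 relative to the array's 75th percentile; every panel spans 2 log2 units), scrambled shRNA in blue and Sirt6 shRNA in red, with a line at each mean (n = 4). Ccl2, Cxcl1, Icam1 and Vcam1 separate clearly, Cxcl10 and Tnf overlap, and Tnfaip3 has means of -2.07 and -2.06.

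The genes of the NF-kB feedback loop had differences nearer to 0. Nfkbia encodes IkB-alpha, the inhibitor that keeps NF-kB in the cytoplasm. Its levels were 2.46, 2.45, 2.36 and 2.37 in the scrambled arrays and 2.20, 2.38, 2.22 and 2.10 in the Sirt6 arrays, where replicate 2 overlapped the scrambled range. The difference of -0.19 ± 0.061 (SE; interval -0.33 to -0.046) had an adjusted p of 0.0512 by limma and was not called. It was called without Sirt6 replicate 2 (-0.24, adjusted p = 0.0116) and under 8 other settings, so this gene sits at the threshold.

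Nfkb2 encodes p100, the precursor of the p52 subunit of the alternative pathway. Its levels were -0.25, -0.28, -0.35 and -0.28 in the scrambled arrays and -0.48, -0.35, -0.43 and -0.43 in the Sirt6 arrays. The closest pair of arrays, scrambled replicate 3 and Sirt6 replicate 2, differed by 0.004 log2 units. The difference was -0.13 ± 0.041 (SE; interval -0.23 to -0.039; limma, adjusted p = 0.0416). It was lost in 6 of the 8 omissions (all but scrambled replicate 3 and Sirt6 replicate 2), with the replicate number as a block (adjusted p = 0.0776), and with spike-in scaling, where it was -0.06 (adjusted p = 0.654).

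Tnfaip3 encodes A20, the ubiquitin-editing enzyme that shuts off signalling upstream of the kinase complex. Its levels were -2.26, -1.90, -2.19 and -1.93 in the scrambled arrays and -2.07, -2.03, -2.09 and -2.06 in the Sirt6 arrays. All 4 Sirt6 values lay inside the scrambled range. The difference was 0.0075 ± 0.086 (SE), and its interval of -0.19 to 0.21 does not reach the value of -0.59 seen for Vcam1. The sign of this small difference depended on the scaling.

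The adhesion genes Icam1 and Vcam1, whose products hold leukocytes to vessel walls and glia, were lower by similar amounts. Icam1 was at 2.84, 2.92, 2.80 and 2.88 in the scrambled arrays and at 2.12, 2.31, 2.16 and 2.31 in the Sirt6 arrays, a difference of -0.63 ± 0.058 (SE; interval -0.77 to -0.50; 1.55-fold; limma, adjusted p = 0.000205). Vcam1 was at 5.46, 5.43, 5.32 and 5.30 in the scrambled arrays and at 4.71, 4.77, 4.78 and 4.87 in the Sirt6 arrays, a difference of -0.59 ± 0.053 (SE; interval -0.72 to -0.47; 1.51-fold; limma, adjusted p = 0.000194). The nearest arrays of the groups stood 0.48 log2 units apart for Icam1 and 0.43 for Vcam1. Among 10 endothelial markers, Emcn, Esam and Tie1 were at background on every array, and of the 5 tested none was called lower and 1 was called higher (1 and 2 by limma's unadjusted p). The mean level of those 5 tested markers was -2.12 to -2.0 with the scrambled shRNA and -2.11 to -1.86 with the Sirt6 shRNA.

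Some members varied together within the groups and others did not. Over the 8 arrays, with group means subtracted, Ccl2 and Tnf had the highest correlation of any pair (0.893), and Cxcl10 and Cxcl1 the lowest (-0.720). All pairs among Ccl2, Tnf, Nfkbia and Nfkb2 lay between 0.696 and 0.893. Tnfaip3 went against Cxcl1 (-0.638) and Traf1 (-0.646). Cxcl10 followed the mean of the 19 tested genes of a fixed interferon response list (0.813), which was 1.63 to 2.03 in the scrambled arrays, with replicate 3 lowest, and 1.37 to 1.66 in the Sirt6 arrays. Nearest to Ccl2 in pattern were Ecscr (0.994), Nmnat3 (0.987) and Cib1 (0.982), and nearest to Icam1 were Abhd17a (0.992), Tmem181 (0.989) and Crlf2 (0.984). For Vcam1 they were Nop14 (0.988), LOC100363535 (0.984) and Hnrnpk (0.982), whose own differences lay between -0.21 and 0.08. For Cxcl10, Cxcl1, Traf1, Nfkbia, Nfkb2 and Tnfaip3, the 3 nearest genes each correlated at 0.962 to 0.991. For every member the nearest genes were picked as the 3 highest among all other genes tested, over only 8 arrays. Such a search gives high values by itself, so these correlations carry no test and do not show shared regulation.

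**Figure D4:**
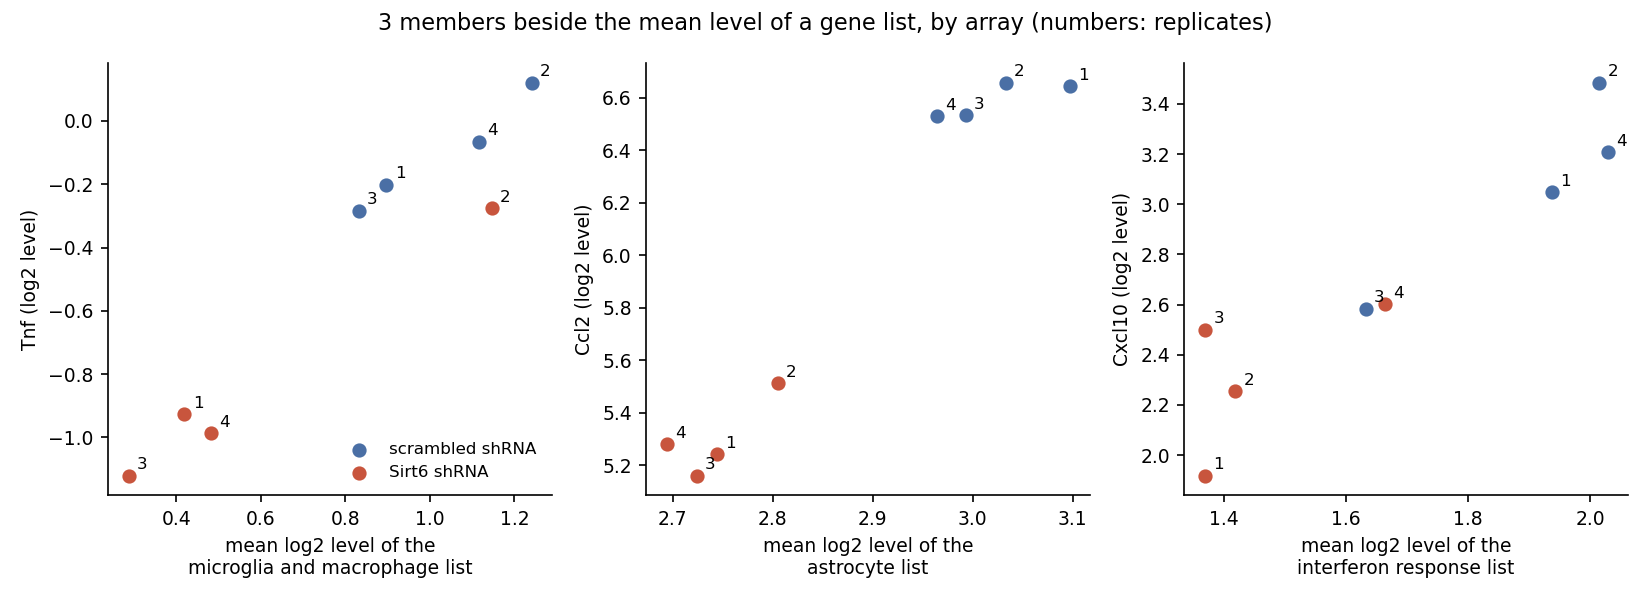
Level of Tnf, Ccl2 and Cxcl10 (y axes, log2) against the mean log2 level of the tested genes of the microglia and macrophage list, the astrocyte list and the interferon response list, one point per array, numbered by replicate; scrambled shRNA in blue, Sirt6 shRNA in red. Sirt6 replicate 2 sits among the scrambled arrays for the microglia list at 1.15 and for Tnf at -0.27, and not for Ccl2.

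Beyond the members, 144 other genes of the pathway were tested in lists arranged by role. Of these, 60 were called lower and 9 higher, 47.9% in all beside the background of 30.4%, with a median difference of -0.20. The lists too were chosen with earlier results of these data known. The lists share 5 of these genes (Birc3, Relb, Bcl3, Nfkbie and Nfkbiz), which stand both among other NF-kB targets and in a list of adaptors or subunits and are counted once in the 144. When arrays were scaled on spike-in probes, 30 were called lower. In that setting the lower calls among all genes tested also fell, from 3350 to 1176, so the smaller counts are not particular to these lists. The highest counts of lower genes were in the lists of other NF-kB targets and of chemokines. The counts of each list below stand beside 14.8% called lower and 15.6% called higher among all genes tested.

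Among upstream ligands and receptors, 4 of 19 were lower and 3 higher, with a median of -0.12; with spike-in scaling 2 were lower and 2 higher. Tlr2, a receptor for bacterial lipoproteins, was at -0.58 ± 0.096 (SE, limma, adjusted p = 0.00324), and Ltbr, the lymphotoxin receptor, at -0.49 ± 0.039 (adjusted p = 0.000116). Tnfrsf1b, a TNF receptor, was at -0.32 (adjusted p = 0.0223), a call lost in 5 of the 8 omissions (scrambled replicates 1 and 2, Sirt6 replicates 1, 3 and 4). Il1r1, the interleukin 1 receptor, was higher at 0.52 ± 0.10 (adjusted p = 0.00761), a difference that was 0.17 after normexp background correction and 0.35 with 16 added to each signal, called in both. Of the adaptors and kinases, 7 of 27 were lower and none higher (10 and 2 by unadjusted p), with a median of -0.09. They included Ikbkb, a kinase of IkB (-0.29), Tab1, a partner of the kinase TAK1 (-0.34), and the ubiquitin ligases Birc2 (-0.32) and Birc3 (-0.53). Without Sirt6 replicate 2 the count was 11, and with spike-in scaling it was 1. With Traf1 included, 28.6% of the 28 tested adaptors and kinases were called in either direction, near the 30.4% of all genes.

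Of the NF-kB subunits and IkB proteins that are no member, 5 of 8 were lower and none higher (5 and 1 by unadjusted p), with a median of -0.23. Rela, the main activating subunit, was not called at -0.08 ± 0.066 (SE, limma, adjusted p = 0.384), whereas Relb (-0.27), Nfkb1 (-0.23), Bcl3 (-0.23) and the inducible Nfkbiz (-0.44, adjusted p = 0.000435; -0.25 after normexp background correction) were called lower. With spike-in scaling 1 of the 8 was. Among feedback inhibitors 3 of 10 were lower and none higher (4 and 0 by unadjusted p): the A20-binding proteins Tnip1 (-0.25) and Tnip2 (-0.24), and Tollip (-0.14), a brake on Toll-like receptor signalling. That count was 0 with spike-in scaling, with no filter on dim probes or without scrambled replicate 2, and 1 without scrambled replicate 1 or 4 or Sirt6 replicate 1, 3 or 4. The median of the feedback list was -0.08.

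Differences among the chemokine genes that are no member ranged from -1.65 to 0.34. Of 22 such CC and CXC chemokines tested, 14 were lower and 1 higher, with a median of -0.48. Besides Ccl7, Ccl12 and Cxcl9, Cxcl13, the B-cell chemokine, was at -1.65 ± 0.46 (SE, limma, adjusted p = 0.0300). Its levels were -1.92, -1.16, -1.65 and -1.37 in the scrambled arrays and -3.58, -1.67, -3.68 and -3.79 in the Sirt6 arrays. Sirt6 replicate 2 again stood at the scrambled level, and omitting any of 6 arrays ended the call, namely scrambled replicates 2, 3 and 4 and Sirt6 replicates 1, 3 and 4. After normexp background correction its difference was -0.80. With spike-in scaling, 9 of the 22 were lower.

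Of the 11 receptors for these ligands that were tested, 2 were lower and 3 higher, with a median of 0.17. Cxcr4, the receptor of Cxcl12, was higher at 0.61 ± 0.047 (SE, limma, adjusted p = 0.000104). The scavenging receptors Ackr2 (0.47) and Ackr3 (0.30) were higher too, calls that were lost after normexp background correction, where they were at 0.11 and 0.10. Cxcr5, the receptor of Cxcl13, was called lower at -0.26 (-0.09 after normexp background correction, not called), and 9 of the 21 receptors on the array, Ccr2, Cxcr2 and Cxcr3 among them, were at background on all arrays. Any 1 array left out brought the count of lower receptors from 2 to 1 or 0.

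Of 28 other NF-kB targets, 19 were lower and 1 higher, with a median of -0.28. The complement genes Cfb (-1.44 ± 0.13, limma, adjusted p = 0.000174) and C3 (-0.79 ± 0.077, adjusted p = 0.000275) were among them. So were Ptx3, a secreted pentraxin (-0.82 ± 0.066, adjusted p = 0.000120), and Gadd45b, a stress-induced regulator of kinase signalling (-0.91 ± 0.085, adjusted p = 0.000225). Il6 and Csf2 were at background on all arrays. With spike-in scaling 12 of the 28 were lower. In the interferon response list, 9 of 19 were lower and none higher (13 and 0 by unadjusted p), with a median of -0.41. Ifit3 was at -1.31 ± 0.26 (adjusted p = 0.00691), Irf7 at -0.95 (adjusted p = 0.00691), Rig1 at -0.66 (adjusted p = 0.000686) and Oas1a at -0.70 (adjusted p = 0.0129), the last with overlapping groups. With spike-in scaling 5 were lower.

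Of 5 other adhesion and matrix genes tested, 2 were lower and 1 higher. Mmp3, a matrix protease, was at -0.79 ± 0.14 (SE, limma, adjusted p = 0.00384); this was -0.18 after normexp background correction and -0.39 with 16 added to each signal, called in both. Madcam1, an addressin, was close to background, like Traf1, with scrambled levels of -4.74 to -4.39. It was well above background on all 4 scrambled arrays and on none of the Sirt6 arrays, and was called lower (limma, adjusted p = 0.0324). Madcam1 thus passed the filter on dim probes only through the group where it was higher, so its call is no independent support. Among the 3 genes well above background on all 8 arrays, 1 was lower and 1 higher. The call was lost in 6 of 8 omissions, all but those of Sirt6 replicates 2 and 4. Those 6 omissions took the count of lower genes to 1. With signals raised to at least the lowest one that was well above background on their array, it was 1.91-fold lower in the scaling used here. The fitted difference was -0.21 after normexp background correction and -0.48 with 16 added to each signal, called in both. Both are smaller than that fold, so it is not a lower limit. The call was also lost with no filter on dim probes and with the replicate block. Tnc, which encodes the matrix protein tenascin C, was higher at 0.95 ± 0.094 (adjusted p = 0.000297).

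**Figure D5:**
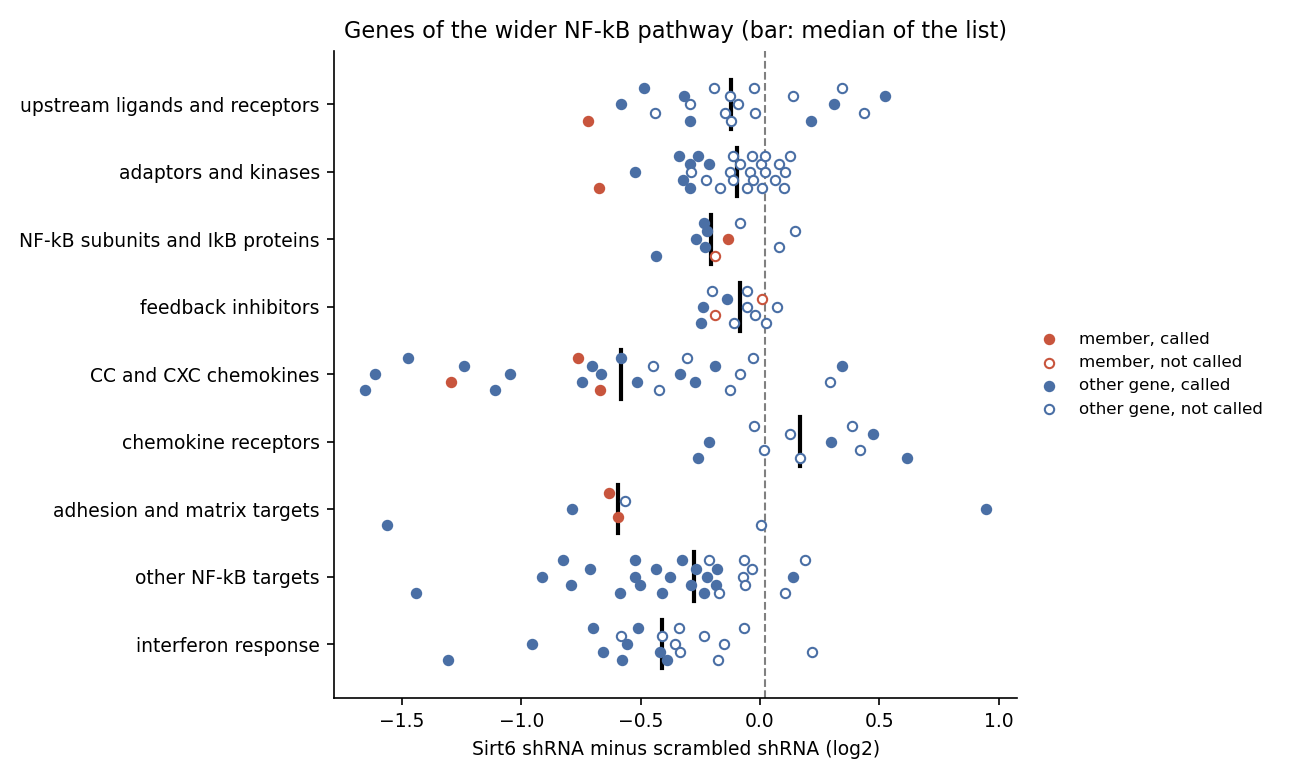
Difference between groups (x axis, log2, Sirt6 shRNA minus scrambled shRNA) for every tested gene of 9 pathway lists; red points are the 10 members, blue points other genes, filled points were called, black bars are list medians over all tested genes of the list, members included, and the dashed line is the median of all genes at 0.02. Chemokines reach farthest to the left, down to -1.65, and chemokine receptors have a median of 0.17.

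Markers of some other cells also differed between the groups. The counts below stand beside 14.8% called lower and 15.6% called higher among all genes tested, 30.4% in all. The share of called markers was above 30.4% in the astrocyte, mural and fibroblast lists. In the oligodendrocyte list it was nearer to that background, so its calls alone do not set that list apart. Of 12 astrocyte markers, 8 were lower and 1 higher, with a mean level of 2.96 to 3.10 in the scrambled arrays and 2.69 to 2.81 in the Sirt6 arrays, and 5 were lower with spike-in scaling. Ccl2 correlated with this list at 0.720 and Nfkbia at 0.846 within groups. Of 6 mural and smooth muscle markers tested, 4 were higher, and the mean level of these 6 was -2.33 to -2.11 in the scrambled arrays and -1.46 to -1.29 in the Sirt6 arrays; Rgs5, Des and Kcnj8 were at background on all arrays. The mean of the 9 tested fibroblast and meningeal markers overlapped between groups, at 0.43 to 0.58 and 0.44 to 0.60, with 1 lower and 5 higher. Of 10 oligodendrocyte lineage markers, 3 were lower and 1 higher (1 and 0 with spike-in scaling), with a median of -0.07. Their mean was 0.23 to 0.36 and 0.10 to 0.14, a gap in which Mbp, named after its values were seen, stood at -1.31 by the probe used and at 0.03 by its other probe. Of lymphocyte and natural killer cell markers, 7 of 10 were at background on all arrays, and none of the 3 tested was called. The part of these cell types in the differences of the 10 genes was not tested.

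The scanner files place the probes behind these values on the rn4 build. The Ccl2 probe A_42_P695401 lies at chromosome 10, 70257919 to 70257978, Cxcl10 at chromosome 14, 17267994 to 17268053, and Cxcl1 at chromosome 14, 18690468 to 18690527. The Tnf probe lies at chromosome 20, 3663558 to 3663617, Icam1 at chromosome 8, 20051730 to 20051789, and Vcam1 at chromosome 2, 212277695 to 212277754. Nfkbia was read at chromosome 6, 75730438 to 75730497, and Nfkb2 at chromosome 1, 251526647 to 251526839; Traf1 and Tnfaip3 have no position in the files. Each member except Tnf was read by a single probe, so exon use within these genes was not measured.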

How the data were processed

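RNA of 8 samples was measured on 1-colour Agilent arrays. The deposited scanner files give an intensity per spot, the processed signal, which Agilent Feature Extraction 11.5.1.1 had background-subtracted and corrected per the file headers. The authors also deposited a log2 table; it equalled log2 of that signal minus each array's 75th percentile to within an SD of 0.0029, with column medians of -3.71 to -3.60, so its scale, centring and direction are known. Here spots of a probe were averaged, log2 levels were set relative to the 75th percentile, and 28620 of 45598 probes well above background on at least 4 of 8 arrays were kept. The brightest kept probe stood for a gene. Probes were named through the array's systematic name (21109 probes), another RefSeq accession (2631), symbols (5159) or older symbols (352), and otherwise kept the name in the file (16347).

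Groups were compared with limma 3.58.1 (lmFit and eBayes, R 4.3.3), two-sided, with Benjamini-Hochberg adjustment over 22593 genes. The code was tested on simulated data. The number of arrays limits the precision. Where a gene was at background on every array of 1 group, the fold was taken after raising signals to the lowest one well above background on each array. Here "at background" means that the scanner software did not call the probe well above it. The members and lists were chosen with earlier results of these data known. Text names the members, Sirt6, up to 4 called genes of largest difference per list, the 3 genes nearest each member in pattern and, outside that rule, chromosome neighbours, Rela and undetected markers. Replicate numbers were not used as pairs: the same-numbered arrays' deviations correlated at 0.0327 to 0.160, not all above 0.1, although each number also marks a shared slide column. Alternatives were other background corrections, scalings, filters, probe rules and fits, the replicate block, and leaving out each array. The normexp correction added an offset of 50 to every signal, so smaller differences of dim genes after it partly reflect that offset.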

Additional observations from a re-analysis of the deposited data

Results flagged for a closer look

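The level of each member and each pathway gene named with values was checked for an array far from the other 3 of its group, in 100 groups of 4, with Dixon's criterion, which chance alone meets in about 1 of 20 groups; 9 groups met it, and none of them was a member's. Sirt6 replicate 2 was the array apart in 3 genes, each time the highest of its group: Cxcl13 at -1.668, Ltbr at 2.651 and Tnfrsf1b at -1.204. Scrambled replicate 3 was apart in 4 genes. It was the lowest of its group for the interferon response genes Irf7 at 2.166, Oas1a at 0.146 and Rig1 at -0.446, and the highest for Nfkbiz at -1.272. Sirt6 replicate 4 was the highest of its group for Cxcl3 at -2.029, and Sirt6 replicate 3 for Ltb at -1.753. The members show the same arrays without meeting the criterion: Tnf was highest in Sirt6 replicate 2 (-0.27) and Cxcl10 was lowest in scrambled replicate 3 (2.58) among their groups.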

How the results depend on the processing

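Of the 10 genes, Ccl2, Cxcl1, Icam1 and Vcam1 kept direction and call in all 21 alternatives, and Traf1 in all 20 in which it was tested. The count of members called lower was 8, and 5 to 8 when single arrays were left out; the other settings gave 6 to 9, with 6 under spike-in scaling and with no filter on dim probes. No setting called a member higher. Pathway genes called lower were 60 and fell to 30 under spike-in scaling. Of all genes, 3350 were called lower and 3523 higher, so 48.7% of called genes were lower. Median centring gave 1998 higher (64.8% of calls lower), and spike-in scaling gave 1176 lower and 2091 higher (36.0%); the median of all genes was 0.021, -0.025 and 0.095 in these settings. Tnfaip3 turned sign, never called, at -0.0394 after normexp, -0.0027 after quantile normalization, -0.0376 with median centring and -0.0356 with array weights, and ranged from -0.056 to 0.066 over the omissions. The cause was not tested. With the replicate number as a block, 7 members were called lower, since Cxcl10 (adjusted p = 0.0555) and Nfkb2 (0.0776) were lost and Nfkbia (0.0463) was gained. The labels do not say that the numbers pair the samples, and the correlations of same-numbered arrays, 0.0327 to 0.160, were positive but not all above 0.1; since each number also marks a slide column, this is the fit with the column as a block too. Dim signal limits the size of differences for Traf1, Madcam1, Mmp3, Il1r1, Ltb, Ccl12, Cxcl9, Cxcl11, Cxcl13, Cxcr5, Nfkbiz, Ackr2 and Ackr3. Among the called members and pathway genes named with values, these shrank by over 1.5 times after normexp, which adds an offset of 50.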
